A study of Mus musculus with 11 samples.

Results

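Pln-positive contractile smooth muscle cells of the mouse liver were examined in 2 single-cell 10X libraries, and their expression pattern was then tested in plate-based Smart-seq2 wells that the choice of cells had not used. The cells were chosen by measured counts. In both libraries made with the digestion labelled PF, cells with at least 300 genes and at most 30% mitochondrial UMIs (unique molecular identifiers, each a captured transcript) were kept. Members then held at least 2 UMIs of Pln, no UMI of the pericyte marker Higd1b, and at most 3 UMIs summed over the fibroblast markers Cd34, Clec3b and Dpt. The rule found 1883 cells among the 30999 kept cells of all 5 10X libraries. Of these, 982 were in the uninjured library, which is 17.1% of its 5737 kept cells (exact 95% binomial interval 16.2 to 18.1). The other 901 were in the library made after 6 weeks of CCl4, 15.95% of 5648 kept cells (15.01 to 16.9). Comparison cells came from the same library, had no Pln UMI and held at least 10 UMIs summed over Acta2, Tagln, Myh11 and Tpm2. There were 308 of them in the uninjured library and 1565 after CCl4.

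All animals were young adult male Pdgfrb-BAC-eGFP mice on a C57BL/6 background, in which a green fluorescent protein marks cells that use the Pdgfrb promoter. Live cells were sorted as GFP-positive and negative for CD45 and CD102, markers of leucocytes and endothelium. Each 10X library pooled 3 mice, so a condition was 1 library and no test between 10X conditions was possible. Uninjured mice were healthy, and injured mice received carbon tetrachloride (CCl4, a hepatocyte toxin) for 6 weeks. The 6 Smart-seq2 plates, each with 2 or 3 mice, held wells from uninjured mice beside wells taken after 6 weeks of CCl4 or 14 days after bile duct ligation (BDL), and 1 plate held uninjured mice alone. The uninjured library held 25965670 UMIs (median 4300 per cell) and the CCl4 library 31095219 (median 5097.5). The median member held 3269 UMIs from 1436 genes in the uninjured library, and 4501 UMIs from 1858 genes after CCl4. The 2 libraries shared 45 cell barcodes, 2 of which belonged to members in both. In the 3 libraries made with the digestion labelled HSC (hepatic stellate cells) no cell held 2 UMIs of Pln.

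Phospholamban, the product of Pln, is a small membrane protein that restrains the calcium pump of the sarcoplasmic reticulum. Smooth muscle contracts when calcium released from that store, or admitted through the surface membrane, binds calmodulin and switches on myosin light chain kinase. In the liver, contractile smooth muscle wraps the portal vein, hepatic artery and larger vein branches, while pericytes and stellate cells surround smaller vessels and sinusoids. Pcp4l1 encodes a relative of the calmodulin-binding protein PCP4. Sorbs2 encodes an adaptor of the Z-disc and of actin-anchoring sites, and Tcap encodes telethonin, a Z-disc protein that caps titin. On GRCm38, Pln lies on chr10:53337667-53345987 (plus strand), Pcp4l1 on chr1:171173262-171196268 (minus), Sorbs2 on chr8:45507788-45827906 (plus) and Tcap on chr11:98383811-98384953 (plus).

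The sequences before the transcription starts of Pln, which defines the cells, and of 2 genes that ran with it are shown because these genes were high in the same cells. Each line is 250 bases ending at the base before a RefSeq start on GRCm38.p6, written 5′ to 3′ on the gene's strand, and capitals mark a motif found by a letter search. The windows are chr10:53337436-53337685 for Pln, chr1:171196269-171196518 for Pcp4l1 and chr8:45507538-45507787 for the outermost of 3 Sorbs2 starts.
Pln: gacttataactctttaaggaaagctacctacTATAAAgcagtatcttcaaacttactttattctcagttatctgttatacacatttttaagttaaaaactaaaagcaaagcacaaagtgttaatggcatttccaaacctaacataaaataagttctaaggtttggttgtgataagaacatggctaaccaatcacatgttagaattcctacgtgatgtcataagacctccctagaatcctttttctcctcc
Pcp4l1: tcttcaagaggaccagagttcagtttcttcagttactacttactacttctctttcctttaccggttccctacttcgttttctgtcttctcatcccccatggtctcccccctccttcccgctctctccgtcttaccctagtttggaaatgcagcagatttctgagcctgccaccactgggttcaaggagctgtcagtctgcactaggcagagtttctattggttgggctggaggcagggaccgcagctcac
Sorbs2: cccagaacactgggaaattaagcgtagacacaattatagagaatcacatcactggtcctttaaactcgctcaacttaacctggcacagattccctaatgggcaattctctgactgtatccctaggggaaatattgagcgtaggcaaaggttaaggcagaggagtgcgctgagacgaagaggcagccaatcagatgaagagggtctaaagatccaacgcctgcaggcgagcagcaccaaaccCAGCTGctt
The search covered both strands for the CArG box, which serum response factor binds, and for the MCAT element, spelled CATTCC. It also covered the E-box spelled CAGCTG, which reads alike on both strands, and the TATA box spelled TATAAA. The Pln window had 1 TATAAA, from base -219 to -214, and 32.8% G or C. The Sorbs2 window had 1 CAGCTG, from base -9 to -4, and the Pcp4l1 window had none of the letters searched. Of 32851 mouse windows of the same length, 12.4% held TATAAA, 13.0% the E-box, 12.6% the MCAT element and 1.47% a CArG box.

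The smooth muscle label held against the marker lists. Summed over 10 smooth muscle markers, members held 52087 CPM (UMIs of the genes per 1000000 UMIs) in the uninjured library and 52121 after CCl4, with Acta2 (smooth muscle actin) the most abundant. Every member carried at least 3 of the 10, but that count does not set members apart. All comparison cells met it, as did 56.5% and 92.4% of the fibroblast-gene cells defined below. The summed level was 22663 and 11200 CPM in comparison cells and 878 and 2015 in fibroblast-gene cells. Endothelial markers summed to 3.99 CPM in uninjured members and 4.22 after CCl4, leucocyte markers to 2.46 and 3.48, and hepatocyte markers to 9.22 and 7.95. The defining endothelial genes Cdh5 and Kdr were at 0 in both libraries, and so were the ventricular and skeletal genes Myh6, Myh7, Myl2 and Myl3. All 10 cardiac or skeletal markers summed to 7.99 and 8.70 CPM, led by Acta1 (5.22 and 4.97). Cholangiocyte markers summed to 0 and 0.994 and mesothelial markers to 0 and 0.248, while the 5 Schwann cell markers summed to 21.2 and 29.1, most of it Cnp. Pericyte markers were not absent. Their sum was 1574 CPM in uninjured members and 2364 after CCl4, led by Rgs5 (754 and 1398), with Higd1b at 0 by the rule. Fibroblast markers summed to 389.6 and stellate markers to 325 in uninjured members, led by Gpx3 and Ecm1. After CCl4 these sums were 552 and 391. The fibroblast sum includes Cd34, Clec3b and Dpt, which the rule capped in members, so it was partly fixed by the choice of cells.

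Because Pln UMIs chose the cells, their number was used only to describe them. Members held a median of 5 Pln UMIs (range 2 to 27) in the uninjured library and 4 (2 to 38) after CCl4. At the lower edge, 139 uninjured members and 204 CCl4 members had exactly 2 Pln UMIs, while 150 and 240 contractile cells (at least 10 UMIs of Acta2, Tagln, Myh11 and Tpm2) that met every other condition had exactly 1 and stayed outside. The cells with 1 Pln UMI held 1750 CPM of Pcp4l1 in the uninjured library, against 2032 in members with 2. For Sorbs2 the values were 324 outside and 485 inside, and members with 7 or more Pln UMIs held 672. Tcap did not rise steadily with Pln. It was at 308 outside, 374 at 2 Pln UMIs and 265 at 7 or more in the uninjured library. After CCl4 these Tcap values were 286, 373 and 461. Rgs5, a pericyte and smooth muscle regulator of G-protein signalling, ran the other way at this edge, with 1253 CPM outside and 752 inside in the uninjured library and 2619 and 1543 after CCl4. At the fibroblast edge, 20 uninjured and 83 CCl4 members held exactly 3 UMIs of Cd34, Clec3b and Dpt, and 4 and 36 cells held 4. At the Higd1b edge, 109 and 294 cells with 1 Higd1b UMI stayed outside. They held 1919 and 1317 CPM of Pcp4l1 and 2565 and 2104 of Rgs5.

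**Figure D1:**
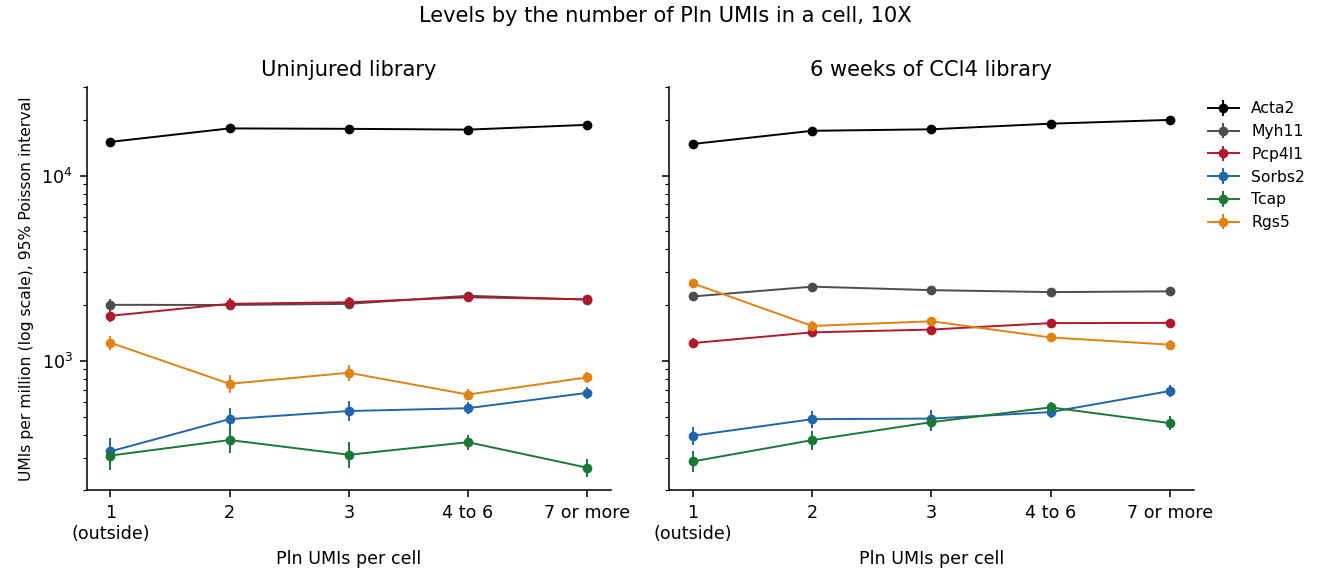
Levels of 6 genes in CPM (vertical log axis, bars are exact 95% Poisson intervals) in cells grouped by their number of Pln UMIs (horizontal axis), in the uninjured library (left) and after 6 weeks of CCl4 (right). The leftmost point of each line is the contractile cells with 1 Pln UMI that the rule left outside. Sorbs2 ran from 324 there to 672 at 7 or more Pln UMIs in the uninjured library, while Rgs5 was highest outside, at 1253. Tcap in that library was at 308 outside and 265 at 7 or more Pln UMIs.

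The Higd1b condition removed a different share of cells in each library. Of the cells with at least 2 Pln UMIs, 14.0% also held a Higd1b UMI in the uninjured library (171 of 1219, exact 95% interval 12.1 to 16.1) and 40.9% after CCl4 (701 of 1714, 38.6 to 43.3). These intervals cover counting error only, and 1 library per condition allows no test. After every cell with at least 2000 UMIs was thinned to 2000, the shares were 9.12% and 22.7%. Members were nearly all contractile by their own counts. All 982 in the uninjured library and 900 of 901 after CCl4 held at least 10 UMIs of Acta2, Tagln, Myh11 and Tpm2, with a median of 116 and 146 per cell. By the doublet score used here, 0.916% of uninjured members and 2.55% of CCl4 members were called doublets.

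The comparison cells were mixed, and they differed between the libraries. More than 3 UMIs of Cd34, Clec3b and Dpt were found in 97 of the 308 comparison cells of the uninjured library (31.5%) and in 849 of 1565 after CCl4 (54.2%). A strict comparison class was therefore also used, namely Pln-free contractile cells with no Higd1b UMI and at most 3 fibroblast UMIs, with 162 and 291 cells. These strict cells were shallower than members, with a median of 2634.5 and 2704 UMIs against 3269 and 4501. All comparison cells had a median of 3124 and 6022. The part of depth in the absence of Pln from these cells was not tested. As a background for free RNA, fibroblast-gene cells were taken, which had no Pln, fewer than 10 contractile UMIs and more than 3 fibroblast UMIs (3588 and 1415 cells). Pcp4l1 was at 2143 CPM in uninjured members (exact 95% Poisson interval 2093 to 2194) and 1545 after CCl4 (1507 to 1584). In strict Pln-free cells it was at 1295 (1192 to 1404) and 907 (848 to 970), and in fibroblast-gene cells at 22.1 and 41.1. Sorbs2 was at 584 (558 to 611) and 558 (535 to 582) in members, against 164 (129 to 206) and 270 (238 to 305) in strict Pln-free cells and 4.10 and 10.4 in fibroblast-gene cells. Tcap was at 323 (303 to 343) and 480 (459 to 502) in members and 229 (187 to 277) and 244 (214 to 278) in strict Pln-free cells. Of the 3 other marker genes, Pcp4l1 had a UMI in 99.2% and 97.5% of members, Sorbs2 in 71.9% and 76.0%, and Tcap in 53.4% and 61.0%.

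Across the transcriptome, 2995 genes reached 50 CPM in members of both libraries or in comparison cells of both. In members, 367 of them (12.3%) were at least 1.5-fold higher in both libraries and 517 (17.3%) at least 1.5-fold lower. This contrast is the one the rule itself set, so these counts only describe the chosen cells. When cells with at least 2000 UMIs were thinned to that number and both classes chosen again, 39 genes were higher and 129 lower. Against the strict Pln-free cells, 39 of 2756 genes (1.42%) were higher and 114 (4.14%) lower by the same fold. Of the 39, 38 were among the 367. P2rx1, an ATP-gated calcium channel, was at 51.9 CPM (44.4 to 60.4) in uninjured members and 58.4 (51.2 to 66.3) after CCl4, against 8.88 (2.42 to 22.8) and 25.1 (16.1 to 37.4) in strict Pln-free cells and 0.39 and 2.39 in fibroblast-gene cells. The guanine nucleotide exchange factor Net1 was 2.91- and 1.95-fold the strict Pln-free level, and the small membrane protein Smim5 3.07- and 2.16-fold. Smooth muscle markers outside the rule gave 0 of 6 higher and 0 lower than in strict Pln-free cells, beside 1.42% and 4.14% of all genes. Their median fold was 1.25 in the uninjured library and 1.26 after CCl4. Myh11, the smooth muscle myosin heavy chain, was at 2147 and 2398 in members and 1512 and 2037 in strict Pln-free cells. Its UMIs helped to choose the Pln-free cells, so its values only describe them. Cnn1 (calponin) was at 834 and 837 against 942 and 675, and the calcium pump gene Atp2a2 at 229.8 and 264 against 198 and 262. Tnnt2, a troponin T best known from heart muscle, was lower, at 554 and 475 against 1857 and 1360. Igfbp3 was at 8.91 and 22.1 against 248.7 and 293, and the collagen gene Col3a1 at 192 and 223 against 719.6 and 498.

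**Figure D2:**
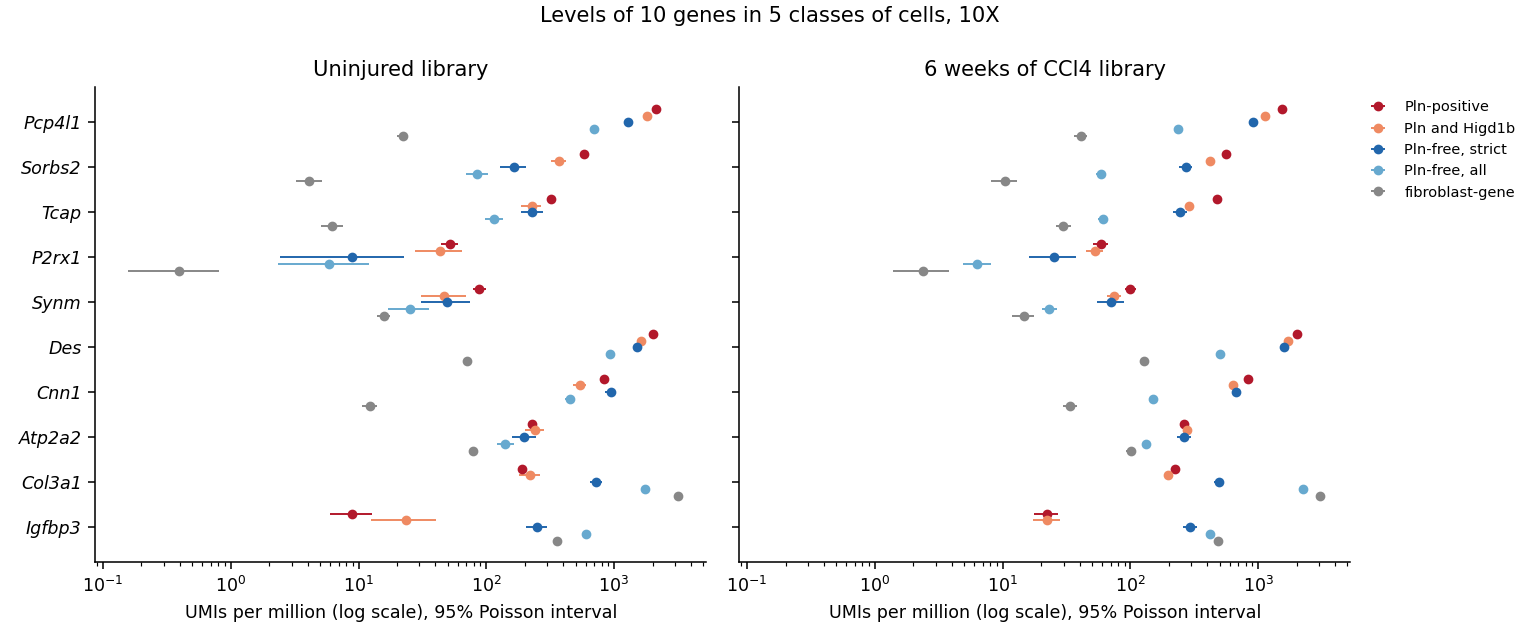
Levels of 10 genes (rows) in CPM (horizontal log axis, bars are exact 95% Poisson intervals) in 5 classes of cells of the uninjured library (left) and the 6-week CCl4 library (right). P2rx1 was at 51.9 and 58.4 in Pln-positive cells and at 8.88 and 25.1 in strict Pln-free cells, while Igfbp3 lay at 8.91 and 22.1 against 248.7 and 293.

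To ask whether the same difference held in samples the rule did not use, wells of the Smart-seq2 plates were sorted by an analogous rule in RPM, the reads of a gene per 1000000 reads of a well or group of wells. Pln-positive wells held at least 100 RPM of Pln, under 10 RPM of Higd1b and at most 1000 RPM of Cd34, Clec3b and Dpt, and 411 of these 417 wells also held at least 3000 RPM of Acta2, Tagln, Myh11 and Tpm2. The rest came from 2 uninjured mice of plate 6 (4 and 2 wells), whose cells were isolated by the HSC digestion. Neither mouse entered the tests below, which held mice of the PF digestion only. Pln-low contractile wells (228) held under 10 RPM of Pln and at least 3000 RPM of the contractile genes. The unit of the test was the portion, the summed wells of 1 mouse on 1 plate, and 15 portions (6 uninjured, 5 BDL and 4 CCl4) had at least 3 wells of each class. Mouse names recur between plates, so the portions may not all be of different mice. Median depth was 441146 reads in Pln-positive and 439268 in Pln-low wells. In edgeR's quasi-likelihood test within portions, 512 of 14104 genes (3.63%) were higher and 530 (3.76%) lower in Pln-positive wells at an adjusted p of 0.05. Rule genes and eGFP were left out of the tests. The counts rested partly on single plates, with 284 higher and 296 lower genes without plate 3, 303 and 288 without plate 5, and 313 and 318 without plate 1, while DESeq2 called 1058 and 1081. Since Pln-positive wells are capped in Higd1b and fibroblast genes and Pln-low wells are not, lower pericyte and fibroblast genes were partly fixed by the sorting, and only in the strict test do both sides carry the caps. Of the 101 strict Pln-low wells, without Higd1b and low in fibroblast genes, those in the 12 portions with at least 3 entered a second test. Against them, 463 of 13149 genes (3.52%) were higher and 210 (1.60%) lower. Of the higher genes, 266 were shared by both tests, 52.0% of the first list and 57.5% of the second. The median log2 difference of all genes tested was 0.19 against all Pln-low wells and 0.73 against strict ones, so list medians below are read beside that value. With the RLE scaling in place of TMM these medians were 0.07 and 0.56.

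The 3 marker genes given with Pln were each higher in Pln-positive wells. Pcp4l1 had 864, 2055 and 3939.5 RPM (lowest, median and highest of 15 portions) in Pln-positive wells and 97.9, 516 and 2671 in Pln-low wells, a log2 difference of 2.23 (SE 0.23, edgeR adjusted p = 2.2e-06). It was higher in 15 of 15 portions, although the 2 ranges overlapped. Sorbs2 had 744, 1384 and 2105 RPM against 0.473, 68.6 and 994, a log2 difference of 4.51 (SE 0.49, adjusted p = 4.15e-06), again higher in 15 of 15. Its ranges overlapped through the Pln-low value of 994 alone, which came from the uninjured portion of plate 6, where that class was only 4 wells. Tcap had 77.0, 324 and 702 RPM against 0, 40.1 and 294 and was higher in 14 of 15 (log2 3.12, SE 0.72, adjusted p = 0.00835). Against strict Pln-low wells Pcp4l1 and Sorbs2 passed (adjusted p = 0.00122 and 0.000536), and Tcap did not (log2 3.50, adjusted p = 0.0954). Its call was also lost without plate 1 or plate 5. P2rx1 had 70.5, 153 and 377 RPM against 0, 0.166 and 291 and was higher in 14 of 15 portions (adjusted p = 0.000145). The exception was the same portion of plate 6, with 135 RPM in Pln-positive and 291 in Pln-low wells.

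**Figure D3:**
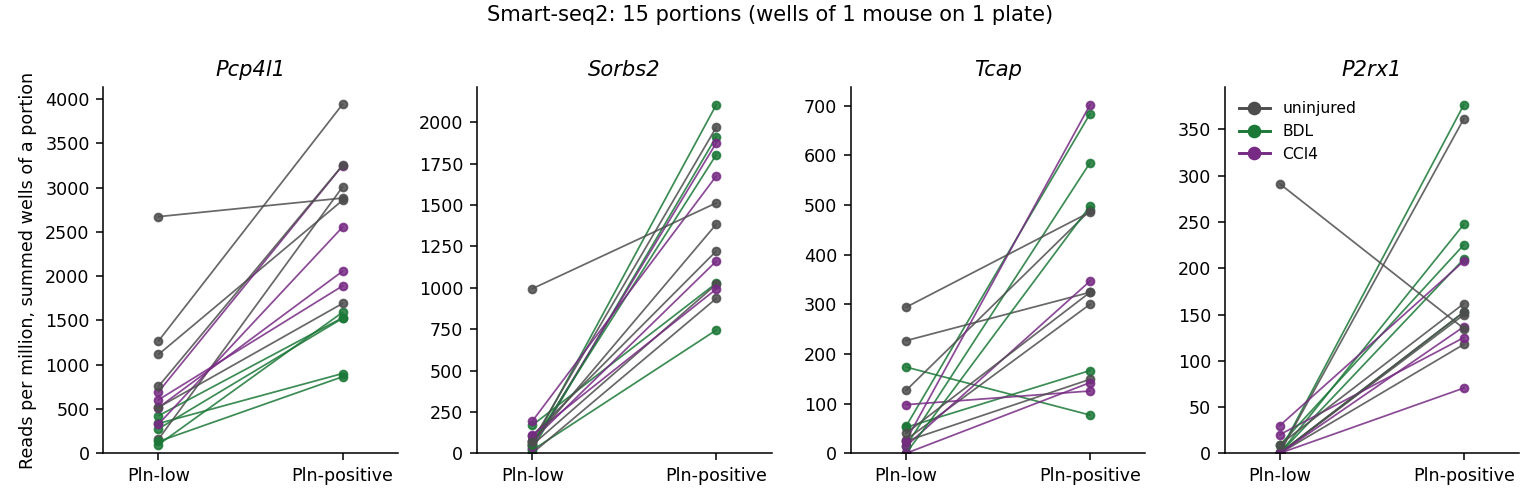
RPM of 4 genes (vertical axes) in the summed Pln-low and Pln-positive wells (horizontal axis) of 15 Smart-seq2 portions, each line 1 mouse on 1 plate, coloured by condition. Sorbs2 was higher in Pln-positive wells in 15 of 15 portions and Tcap and P2rx1 in 14 of 15.

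The genes called in the 10X contrast were then looked up in the plates. Both contrasts cap Higd1b and fibroblast genes on the Pln-positive side only, so shared lower genes are in part the shared rule. Shared higher genes carry the same limit. In 10X, 38 of the 367 (10.4%) were also higher than in strict Pln-free cells, where both sides are capped. Of the 367 higher genes 350 were tested and 228 (65.1%) were also higher in Pln-positive wells, beside 3.63% of all genes tested, and 0 were lower. Of the 517 lower genes 503 were tested and 216 (42.9%) were lower, beside 3.76%, and 0 were higher. Of the 12 genes with the largest increases in the 10X contrast (P2rx1, Sorbs2, Smim5, Susd5, Kcnab1, Myl1, Net1, Corin, Fam81a, Hbegf, 8430408G22Rik and Ldb3), 11 were higher in the plates. Corin, a membrane protease that activates natriuretic peptides, had 543, 905 and 1371 RPM (lowest, median and highest of 15 portions) in Pln-positive wells and 0.664, 163 and 671 in Pln-low wells (adjusted p = 0.00089). Susd5 had 203, 415 and 817 RPM against 0.0938, 6.66 and 225 and was higher in 15 of 15 portions (adjusted p = 0.00425). Hbegf, a growth factor gene, did not pass (log2 1.87, adjusted p = 0.066). Of the 12 with the largest decreases (Fst, Rspo3, Hsd11b1, Gpm6b, Ms4a4d, Ccl11, Fmo2, Cp, Igfbp3, Trf, Lpar1 and Meg3), 11 were lower in the plates, where the same cap applied, and the Wnt amplifier gene Rspo3 did not pass (adjusted p = 0.148). Against strict Pln-low wells, which are fewer, 4 of them did not pass. Ccl11 had a log2 difference of -2.26 there beside -8.76 against all Pln-low wells (strict adjusted p = 0.48), and Hsd11b1 one of -5.26 beside -9.03 (0.0602). Trf had -4.46 beside -5.53 (0.0793) and Meg3 -3.10 beside -3.45 (0.0818). Igfbp3, an insulin-like growth factor binding protein, averaged 5.91 RPM in Pln-positive and 518 in Pln-low wells (adjusted p = 0.000774). Of the 39 genes higher than in strict Pln-free cells, 38 were tested and 28 (73.7%) were higher against strict Pln-low wells, beside 3.52% of all genes. Of the 114 lower genes 112 were tested and 55 (49.1%) were lower, beside 1.60%. The 10 genes named from the plates for the largest increases among those with at least 20 RPM were led by Rergl, a Ras-like GTPase. Rergl had 9.84, 38.7 and 203 RPM in Pln-positive wells and 0, 0 and 16.3 in Pln-low wells, and was higher in 15 of 15 portions (adjusted p = 2.25e-06). The others were 2310015D24Rik, Tigd4, Cbr2, the ligand gene Bmp6, Asb11, Lrrc10b, the Z-disc gene Synpo2l, P2rx1 and Cttnbp2. The 10 lower genes were Vtn, Pla1a, Rgs16, Agtr1a, Cyp4b1, Hsd11b1, Wisp2, Slc16a12, Chrdl1 and Ankrd1. Hsd11b1, which regenerates active glucocorticoid, averaged 0.545 RPM in Pln-positive and 429 in Pln-low wells, and 438 in strict ones (median 19.2, highest 2169).

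Among genes of the sarcoplasmic reticulum, where phospholamban acts, 6 of 19 tested were higher and 1 lower, beside 3.63% and 3.76% of all genes, and the list's median log2 difference was 0.21 beside 0.19. Atp2a2, the calcium pump that phospholamban binds, had 209, 626 and 968 RPM in Pln-positive wells and 217, 334 and 566 in Pln-low wells (log2 0.86, adjusted p = 0.0105), so the ranges overlapped. The inositol trisphosphate receptor gene Itpr1 had 206, 302 and 444 RPM against 44.3, 137 and 317 (log2 1.26, adjusted p = 0.00121). The ryanodine receptor gene Ryr2 had 6.78, 65.3 and 124 RPM against 0, 0 and 37.4 (adjusted p = 0.00948), and the junctional gene Jph2 had a log2 difference of 0.95 (adjusted p = 0.0195). Calr, the lumenal chaperone calreticulin, was lower, with 134, 219 and 346 RPM against 216, 413 and 660.1 (log2 -0.82, adjusted p = 0.00458). Casq2, which buffers calcium in the store, did not pass (log2 -1.04, adjusted p = 0.0571). Against strict Pln-low wells 2 of 17 tested were higher (Atp2a3 and Srl) and Calr alone was lower, beside 3.52% and 1.60% of all genes, with a median of 0.51 beside 0.73. Atp2a2 (adjusted p = 0.0704), Itpr1 (0.243), Ryr2 (0.126) and Jph2 (0.179) were not called there. In 10X, 4 of the 5 genes of this list at 50 CPM were higher than in all comparison cells, beside 12.3% of all genes, and 0 of 5 than in strict Pln-free cells, beside 1.42%. Sln, the sarcolipin gene, had no UMI in members of either library.

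Genes of membrane calcium and potassium transport had 7 of 22 higher and 2 lower (Abcc9 and Ano1), with a median of 0.66. The shares of all genes were 3.63% and 3.76%. Kcnab1, a potassium channel subunit, had 200.04, 389 and 665 RPM in Pln-positive wells against 0.682, 69.5 and 369 in Pln-low wells, and was higher in 15 of 15 portions (log2 2.67, adjusted p = 0.000546). The channel gene Kcna5 was higher in 15 of 15 as well (log2 2.31, adjusted p = 0.000719), and so was the T-type calcium channel gene Cacna1h (adjusted p = 0.00808). Cacna1h had 23.3, 82.97 and 135 RPM against 0, 1.31 and 40.8. Kcnmb1, the accessory subunit of the large-conductance potassium channel, had a log2 difference of 1.39 (adjusted p = 9.98e-05), while the L-type channel gene Cacna1c had one of -0.15 (adjusted p = 0.811). Against strict Pln-low wells 6 of 21 were higher and 0 lower, beside 3.52% and 1.60% of all genes (median 1.52 beside 0.73), and Kcnmb1 was not called (adjusted p = 0.0989). In 10X, 5 of 8 at 50 CPM were higher than in all comparison cells and 1 lower (Abcc9), beside 12.3% and 17.3% of all genes. Strict Pln-free cells gave 0 of 7 higher and 1 lower (Kcnk3), beside 1.42% and 4.14%.

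Receptors for vasoactive signals split. Of 27 tested, 6 were higher and 2 lower in Pln-positive wells, beside 3.63% and 3.76% of all genes, with a median of -0.31. The adrenergic receptor gene Adra1a had 7.87, 34.1 and 98.6 RPM against 0, 0.113 and 33.3 (adjusted p = 0.000585). Ramp1 and Calcrl, whose products form the receptor for calcitonin gene-related peptide, were also higher (adjusted p = 0.000204 and 0.0297). Lower were Ednrb, an endothelin receptor gene, and Agtr1a, the angiotensin II receptor gene. Ednrb had 0, 25.4 and 133 RPM against 13.9, 628 and 1193 (log2 -4.09, adjusted p = 0.00356). Agtr1a had 0, 0 and 4.42 RPM against 0, 55.6 and 201 (log2 -9.07, adjusted p = 0.000225). In the 12 portions with strict Pln-low wells it averaged 34.6 RPM there (median 0.103, highest 199), and the difference did not pass (log2 -3.27, adjusted p = 0.367). Ednra, the other endothelin receptor gene, had a log2 difference of -0.31 (adjusted p = 0.371). Against strict wells 8 of 23 receptor genes were higher and 1 lower, beside 3.52% and 1.60% of all genes, with a median of 1.00 beside 0.73.

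Of the myosin genes and their regulators 10 of 17 were higher and 1 lower, beside 3.63% and 3.76% of all genes (median 0.73). Myl9, the regulatory light chain of smooth muscle, had 10637.5, 16365 and 20419.8 RPM against 4978, 7819 and 14438 (log2 1.13, adjusted p = 1.76e-06), and the kinase gene Mylk had a log2 difference of 0.72 (adjusted p = 4.6e-05). Against strict wells 6 of 16 were higher and 0 lower, beside 3.52% and 1.60% of all genes, with a median of 0.59 beside 0.73, Myl9 among them, and Mylk was not called (adjusted p = 0.0528). In 10X, 0 of 15 at 50 CPM were higher than in strict Pln-free cells, beside 1.42% of all genes. Of the actin filament genes 7 of 13 were higher and 1 lower against all Pln-low wells, again beside 3.63% and 3.76% of all genes (median 0.46), but 0 were higher and 3 lower against strict ones, beside 3.52% and 1.60% of all genes (median 0.24 beside 0.73). Those 3 were Cnn1, Actg2 and Tnnt2. Cnn1 had 739, 1221 and 1976 RPM in Pln-positive wells of 15 portions and 1099.9, 2738 and 3469 in strict Pln-low wells of 12 portions (log2 -0.75, adjusted p = 0.0121). Actg2, the enteric smooth muscle actin gene, had 1193, 1481 and 2800.5 RPM against 962, 3653 and 7077 (log2 -1.11, adjusted p = 0.00143). Tnnt2 had 82.97, 501 and 1100.2 RPM against 507, 2718 and 4368 (log2 -1.98, adjusted p = 0.00393). The ranges of all 3 overlapped.

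The list of Z-disc, costamere and intermediate filament genes had 15 of 26 members higher and 1 lower, beside 3.63% and 3.76% of all genes, with a median of 0.98. Xirp1, an actin-binding protein of muscle attachment sites, had 121, 178 and 300.4 RPM in Pln-positive wells and 0, 3.35 and 84.1 in Pln-low wells (adjusted p = 0.000314), and the 15 portions of each class did not overlap. The intermediate filament genes Synm and Des had log2 differences of 2.74 and 1.00 (adjusted p = 3.86e-05 and 0.001), and Myom1, a sarcomeric M-band gene, had 1.25 (adjusted p = 0.000774). Ankrd1, a stretch-responsive titin-binding protein, was the member that was lower, with 0, 0 and 4.73 RPM against 0, 34.1 and 305 (adjusted p = 1.44e-05). Against strict wells 7 of 25 were higher and 3 lower (Ankrd1, Fhl1 and Flnc), beside 3.52% and 1.60% of all genes, with a median of 0.62 beside 0.73. In 10X, 13 of 20 were higher than in all comparison cells, beside 12.3% of all genes, and Sorbs2 alone than in strict Pln-free cells, beside 1.42%.

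Calmodulin signalling genes were higher in 5 of 12 cases against all and against strict Pln-low wells, with 0 lower, beside 3.63% and 3.52% of all genes. The list's medians, 0.25 beside 0.19 and 0.84 beside 0.73, were near those of all genes. Those against strict wells included Camk2g, a subunit gene of calmodulin-dependent kinase, Pcp4l1 and Rcan2, a calcineurin regulator gene. Of the smooth muscle transcription factors 7 of 23 were higher and 0 lower, beside 3.63% and 3.76% of all genes (median 0.37), including Myocd, the myocardin coactivator of serum response factor (log2 1.32, adjusted p = 0.00931), Mef2c (log2 0.97, adjusted p = 0.0108) and the Notch target Hey2 (log2 0.89, adjusted p = 0.0236). Against strict wells 7 of 23 were higher and 0 lower, beside 3.52% and 1.60% of all genes (median 1.23 beside 0.73), with Mef2c and Hey2 among them and Myocd not called (adjusted p = 0.392). In 10X, 5 of 13 were higher than in all comparison cells and 1 lower (Gata6), beside 12.3% and 17.3% of all genes. Strict Pln-free cells gave 0 of 13 higher and Gata6 lower, beside 1.42% and 4.14%. In the plates, muscle energy genes were higher in 7 of 13 cases with 0 lower, beside 3.63% and 3.76% of all genes (median 1.15). Ckb, the brain-type creatine kinase gene, had a log2 difference of 1.05 (adjusted p = 9.94e-06), Pgam2, the muscle phosphoglycerate mutase gene, 3.38 (adjusted p = 0.0096), and Pygm, the muscle glycogen phosphorylase gene, 1.15 (adjusted p = 0.00317). Ckb and Pgam2 were higher in 15 of 15 portions. Against strict wells 4 of 13 were higher (Ckb, Hadh, Ppargc1a and Pygm), beside 3.52% of all genes, with a median of 1.501 beside 0.73, and Pgam2 was not called (adjusted p = 0.0547).

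Matrix genes were mostly lower. Of 29 tested, 18 were lower and 5 higher, beside 3.76% and 3.63% of all genes, with a median of -1.88. Against strict wells 16 were lower and 4 higher, beside 1.60% and 3.52% (median -1.81). Col3a1 had 243, 393 and 843 RPM in Pln-positive wells and 1552, 5506 and 11323.5 in Pln-low wells, with no overlap between the classes (log2 -3.42, SE 0.26, adjusted p = 7.05e-08). The elastin gene Eln was lower by log2 -1.22 (adjusted p = 0.0211). Higher were Sparcl1, a matricellular protein, with 7278, 8868 and 17575 RPM against 1292, 3505 and 9858 (log2 1.52, adjusted p = 1.54e-05), and the basement membrane genes Col18a1 and Lama5 (log2 1.45 and 1.34). These 3 were higher in 15 of 15 portions. Of 5 fibroblast markers tested 4 were lower and 0 higher, so markers of fibroblasts moved with the class, and their part in the matrix result against all Pln-low wells was not tested. Against strict wells, where both sides hold at most 1000 RPM of Cd34, Clec3b and Dpt, Col3a1 and 15 others of the 18 stayed lower. There 2 of the 5 fibroblast markers (Gpx3 and Pdgfra) were still lower and 0 higher, with a median of -5.42, so the strict wells were not free of fibroblast genes.

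The pericyte list had 3 of 14 genes higher and 4 lower, beside 3.63% and 3.76% of all genes (median -0.10), with Higd1b capped on the Pln-positive side only. Against strict wells, capped alike, 4 were higher (Cspg4, Gja4, Mcam and Rgs4) and Vtn alone lower, beside 3.52% and 1.60% of all genes, with a median of 1.01 beside 0.73. Rgs5 had 664, 1339 and 6591 RPM in Pln-positive and 208, 2559.8 and 11766 in Pln-low wells and did not pass (log2 -0.85, adjusted p = 0.0987). Mcam, an adhesion molecule of vascular mural cells, was higher in 15 of 15 portions (log2 1.06). Pdgfrb, whose promoter drives the reporter used for sorting, was lower against all Pln-low wells (log2 -0.86, adjusted p = 0.000646) and was not called against strict ones (log2 -0.06, adjusted p = 0.929). Vtn, the vitronectin gene, had 0, 0.0807 and 0.883 RPM in Pln-positive wells and 0, 265 and 1015 in Pln-low wells (adjusted p = 3.99e-10). Of 9 immediate early genes, which dissociation can induce, 7 were higher and Jun was lower, beside the same 3.63% and 3.76% (median 0.57 beside 0.19), with Fos at log2 0.62 (adjusted p = 0.00203). Against strict wells 6 were higher and 0 lower, beside 3.52% and 1.60% (median 1.18 beside 0.73). In 10X, 2 of 9 (Atf3 and Btg2) were higher than in all comparison cells, beside 12.3% of all genes. Strict Pln-free cells gave 0 of 9 higher, beside 1.42%. In the plates 2 of 9 heat shock genes were lower, beside 3.76% of all genes, Hspa1a (log2 -1.41, adjusted p = 0.00391) and Hspa1b, with a list median of -0.34 beside 0.19. Their part in the class difference was not tested. Of 7 stellate cell markers tested, 0 were higher and 2 lower (Colec11 and Vipr1), with a list median of -1.29. Colec11, a collectin gene, averaged 4.26 RPM in Pln-positive and 411 in Pln-low wells (adjusted p = 5.23e-05), and it was also lower against strict wells (log2 -6.58, adjusted p = 0.0242), where Vipr1 did not pass (log2 0.07). In 10X, Colec11 was at 3.69 CPM in uninjured members and 322 in the comparison cells, and Ecm1 was also lower. The endothelial, leucocyte, hepatocyte, cholangiocyte, mesothelial and Schwann marker lists had 0 genes called in either plate test. The cardiac and skeletal list had 0 of 7 called against all Pln-low wells, but Actc1, a sarcomeric actin gene, was lower against strict wells (14.2 RPM beside 462, log2 -5.05, adjusted p = 0.0293).

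The share of Pln-positive wells was then compared between conditions over the portions. Among wells that were Pln-positive or contractile, Pln-positive wells made up 36.5, 57.4 and 73.5% (lowest, median and highest of 6 uninjured portions), a mean of 55.9% ± 14.7 (SD). After BDL the 5 portions had 17.4, 25.4 and 47.0%, a mean of 28.0% ± 12.04 (SD). The difference was -27.9 percentage points (exact two-sided permutation test over portions, p = 0.013, Benjamini-Hochberg adjusted over the 2 conditions p = 0.026), and the ranges overlapped. This difference depended on the Higd1b limit of the class. With that limit dropped, wells with at least 100 RPM of Pln made up 71.2% ± 7.82 (SD) in the 6 uninjured portions, 73.4% ± 10.7 in the 5 BDL portions and 67.5% ± 11.7 in the 4 CCl4 portions. The BDL difference was then 2.14 points (exact permutation p = 0.723) and the CCl4 difference -3.75 (exact permutation p = 0.524). With the limit, the BDL difference within plates was -38.1 points on plate 1 and -30.1 on plate 2, but 10.5 on plate 4, the opposite direction. Without plate 1 the difference was -24.5 points (adjusted p = 0.206) and without plate 2 -24.4 (adjusted p = 0.175), with 3 BDL portions left. Mouse names recur between plates: all those of plate 1 on plate 2, all those of plate 3 on plate 5, and both names of plate 4 on plates 1 and 2. The labels do not say whether these are the same mice. With same-named portions of plates 1 and 2 merged, the other recurring names kept apart, the difference was -24.4 points (adjusted p = 0.175). The 4 CCl4 portions had 34.8, 43.2 and 45.6%, a mean of 41.7% ± 4.996 (SD), which is 14.2 points below uninjured and did not pass (difference -14.2, exact permutation p = 0.124, smallest possible p = 0.00952). Both comparisons used the same uninjured portions. Without plate 4 the CCl4 difference was -18.1 points and its adjusted p was 0.0476. That plate holds no CCl4 wells, so leaving it out removed from this comparison only its uninjured portion, the lowest at 36.5%.

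The wells with at least 100 RPM of Pln that also held at least 10 RPM of Higd1b are the ones that the limit removes, so their share is the other side of the same measure and not a further result. It was 3.85, 15.1 and 51.6% in the uninjured portions (mean 20.9% ± 17.3, SD), 41.6, 54.5 and 78.6% after BDL (60.6% ± 15.3) and 20, 36.8 and 52.9% after CCl4 (36.6% ± 17.3). The BDL difference was 39.7 points (exact permutation p = 0.00866, adjusted p = 0.0173), with 52.4 on plate 1, 48.0 on plate 2 and -10.0 on plate 4. It was 35.5 points without plate 1, 35.2 without plate 2 and 35.4 with same-named portions of these plates merged, and did not pass in any of the 3 cases (adjusted p = 0.143 in each). The CCl4 difference was 15.8 points (exact permutation p = 0.181), with 24.5 on plate 3 and 9.29 on plate 5. This measure was added after the files were seen. A share says nothing of numbers in the tissue, since digestion and sorting set which cells reach a well.

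**Figure D4:**
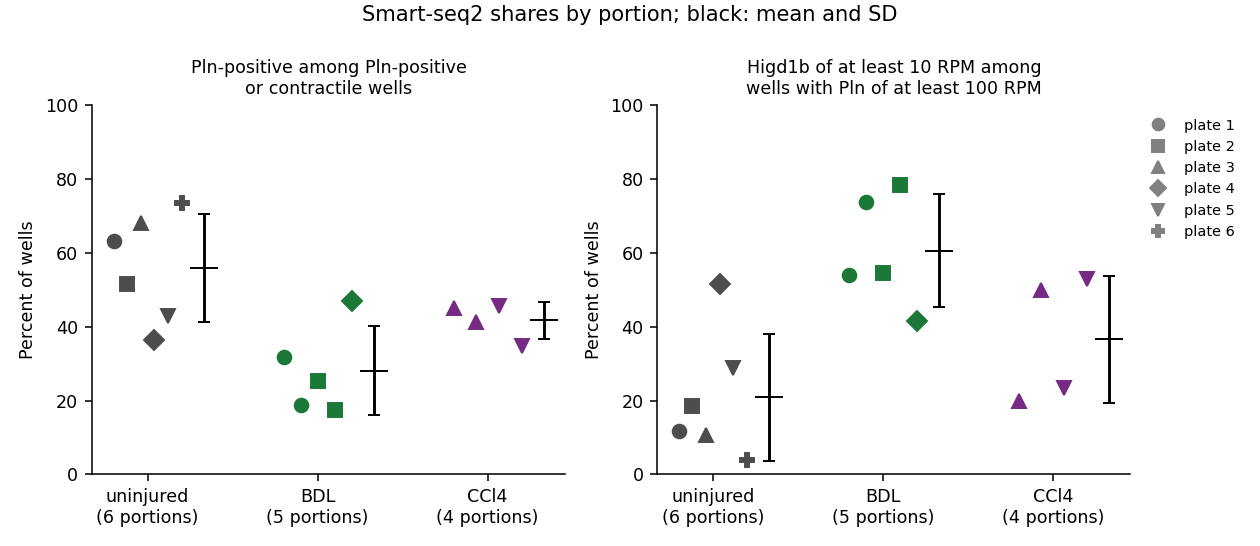
Percent of wells (vertical axes) in each of 15 Smart-seq2 portions by condition (horizontal axes), with the plate as the symbol and the mean and SD in black. Left, Pln-positive (under 10 RPM of Higd1b) among Pln-positive or contractile wells, with means of 55.9% uninjured, 28.0% after BDL and 41.7% after CCl4. Right, Higd1b among Pln wells, with means of 20.9, 60.6 and 36.6%. The 2 portions of plate 4 go against the direction of plates 1 and 2 in both panels.

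Conditions were then compared within the Pln-positive cells. In 10X, 135 of 2865 genes (4.71%) were at least 1.5-fold higher in members after 6 weeks of CCl4 and 45 (1.57%) at least 1.5-fold lower, with 1 library each and no test. In cells thinned to 2000 UMIs the counts were 170 and 63. Among those named for their size, Dbp, a clock-controlled transcription factor, was at 17.5 CPM in uninjured members and 131 after CCl4 (7.49-fold), against a 1.94-fold difference in fibroblast-gene cells and 3.79-fold in Pln-free contractile cells. Ephx3, an epoxide hydrolase gene, went from 44.6 to 153 (3.42-fold), with 9.92-fold in fibroblast-gene cells and 2.33-fold in Pln-free contractile cells. The metallothionein gene Mt1 went from 144 to 484 (3.35-fold, beside 4.54-fold in Pln-free contractile cells), and Lrrc32, which holds latent TGF-beta at the cell surface, from 54.4 to 152 (2.80-fold, beside 2.04-fold). On the lower side, Nrgn, which encodes the calmodulin-binding protein neurogranin, went from 159.8 to 58.6 (0.37-fold) while it was 1.3-fold in fibroblast-gene cells and 0.28-fold in Pln-free contractile cells. Rrad, a small GTPase that restrains calcium channels, went from 1105 to 545 (0.49-fold, against 0.998-fold in fibroblast-gene cells and 0.21-fold in Pln-free contractile cells), and Mir143hg, the host transcript of a smooth muscle microRNA cluster, from 418 to 207 (0.49-fold). Pln itself, which the rule used, was at 1799 CPM (1753 to 1846) and 1103 (1071 to 1136). Of the lists, matrix genes had 2 higher and 0 lower of 20, smooth muscle transcription factors 1 higher (Tbx20) and 0 lower of 13, and actin, myosin and Z-disc lists had none. The sarcoplasmic reticulum list had Jph2 higher and the membrane transport list Kcnk3 lower. In the pericyte list Rgs5 was higher (754 and 1398 CPM, 1.85-fold) and Pdgfrb lower (222 and 132, 0.596-fold), each the sole call in its direction among 10 genes. Gpx3, the 1 fibroblast marker at this level, was higher (144 and 243 CPM, 1.68-fold). The immediate early genes Btg2 and Fosb were lower, 2 of 9, from 1711 to 1105 CPM and from 512 to 322. The part of these pericyte, fibroblast and dissociation genes in the condition difference was not tested.

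**Figure D5:**
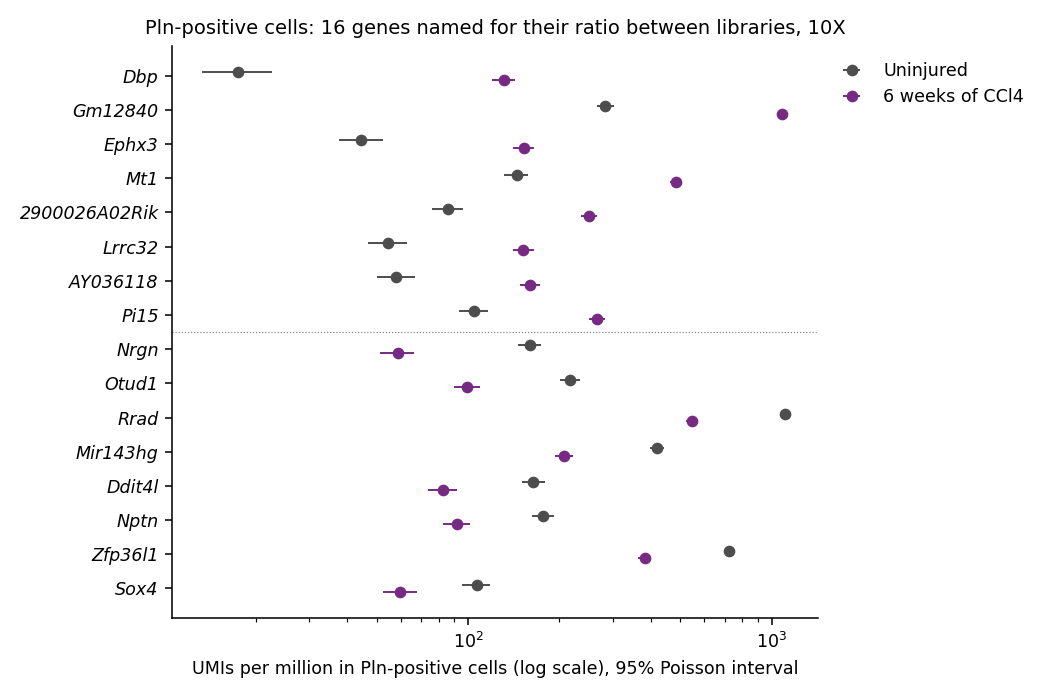
CPM in Pln-positive cells (horizontal log axis, bars are exact 95% Poisson intervals) of the 8 genes named as higher (above the dotted line) and the 8 named as lower (below it) after 6 weeks of CCl4. Dbp lay at 17.5 uninjured and 131 after CCl4, and Nrgn at 159.8 and 58.6. Each condition is 1 library of 3 pooled mice.

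The plates did not carry these differences past the test. In Pln-positive wells of CCl4 against uninjured portions, edgeR called 0 of 14277 genes higher (0%) and 0 lower (0%), with 254 at an unadjusted p of under 0.05, while DESeq2 called 129 and 163. Of the 135 genes higher in 10X 123 were tested, and 67 had a positive log2 difference. Of the 45 lower genes 43 were tested, and 11 had a positive one. Dbp had 4.44, 13.2 and 40.7 RPM in the uninjured portions and 14.8, 92.3 and 105 in the CCl4 portions, with overlap (log2 1.85, unadjusted p = 0.109). For BDL, edgeR also called 0 genes higher (0%) and 0 lower (0%), with 502 at an unadjusted p of under 0.05, and DESeq2 called 201 and 175. The BDL and CCl4 comparisons share the uninjured portions. The interaction of class and condition gave 0 calls (0%), with 230 at an unadjusted p of under 0.05.

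The genes nearest to a call after BDL were chosen for mention after their values were seen. Sparcl1 had 7278, 7768 and 8868 RPM in Pln-positive wells of the uninjured portions and 12067, 15064 and 17575 after BDL, and the groups did not overlap (log2 1.06, SE 0.18, edgeR adjusted p = 0.119, DESeq2 adjusted p = 5.5e-06). Serpina3n, an inflammation-induced protease inhibitor, had 0, 0.182 and 1.68 RPM uninjured, 29.0, 177 and 992 after BDL and 0.536, 5.09 and 10.2 after CCl4. The uninjured and BDL portions did not overlap, and the edgeR adjusted p was 0.119. In the Pln-low wells it had 0, 23.2 and 129.5 RPM uninjured and 398, 983 and 1875 after BDL, also without overlap. Cyb5r3, a cytochrome b5 reductase gene, had 397, 671 and 817 RPM uninjured and 1107, 1546 and 1781 after BDL (log2 1.47, adjusted p = 0.353), and Pln-low wells had at most 844 uninjured and at least 921 after BDL. Gadd45g, a stress-induced gene, had 760.1, 987 and 1390.2 RPM uninjured and 112, 241 and 472 after BDL (log2 -1.83, adjusted p = 0.353). In Pln-low wells the uninjured and BDL ranges overlapped for Sparcl1 (1292 to 4413 and 2464 to 9858 RPM) and Gadd45g (304 to 1009 and 263 to 382). In Pln-positive wells all 4 pairs of groups were separate, beside 0% of genes called in this comparison. In 10X members, Sparcl1 was at 2139 CPM uninjured and 2236 after CCl4.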

How the data were processed

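Members, gene lists and tests were chosen with earlier results of these data known. For 10X libraries (3' v2), the deposited counts of UMIs came from Cell Ranger 2.1.0 on mm10 with Ensembl 84, per the labels and the study's methods. For the plates, the authors aligned reads with STAR to mm10 with eGFP and spike-ins, and the deposited counts were of reads per RefSeq gene. 771 rows of 279 repeated symbols (0.0257% of reads) were dropped.

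From these counts, 10X cells were selected by the stated thresholds and UMIs summed per class and library. Levels are CPM (UMIs per 1000000) with exact 95% Poisson intervals, and shares have exact (Clopper-Pearson) binomial intervals, which cover counting error only. A count of 0 allows up to 3 counts. Doublets were scored by neighbours among simulated pairs and left in. Genes at 50 CPM in the same class of both libraries were compared, with 1.5-fold as the call. Wells were kept (2065 of 2292) by limits set 3 median absolute deviations from the median. Reads and detected genes had a lower limit, and the percentage of spike-in reads an upper one. Portions were then summed. Portions of a plate share a plate, and the labels do not say whether mice recur between plates, so p-values measure the spread between portions. Class was fitted with edgeR 4.0.16 (TMM, quasi-likelihood) with the portion as a block, since both classes come from the same mouse, and conditions with the plate as a term. DESeq2 1.42.0 was an alternative. p-values were Benjamini-Hochberg adjusted over all genes tested. Shares used exact permutation tests (SciPy 1.17.1). Genes were named as the 12 largest folds each way between 10X classes (the smaller fold of the 2 libraries), the 8 largest between 10X conditions at 100 CPM, the 10 largest in the plates at 20 RPM past the test, and list members as examples. Scripts were tested on simulated data. Sequences are RefSeq's (GRCm38.p6) and positions are of GRCm38. Proteins were not used here.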

Additional observations from a re-analysis of the deposited data

Results flagged for a closer look

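Of 33 groups of 4 to 6 portions examined for a stray sample, 1 had such a sample, and chance alone gives about 1 in 20. P2rx1 in Pln-positive wells of the uninjured portions was at 362 RPM on plate 4, while the other 5 lay between 118 and 162 RPM.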

How the results depend on the processing

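The fall in the share of Pln-positive wells after BDL reversed to 2.14 points when the Higd1b limit was dropped, an alternative added after the data were seen. Of 950 values recomputed under alternatives, 176 were for the main results, of which 129 stayed within the stated limits, and 774 for named genes, of which 637 did. With 1 Pln UMI as the limit, members made up 19.9% and 20.2% of the 2 libraries, so their order turned round, and cells with Higd1b 11.7% and 38.2% of the Pln cells. With 3 UMIs the members were 14.7% and 12.3%. In cells thinned to 2000 UMIs, which drops shallower cells and chooses the classes again, the members were 15.1% and 13.0%, the Higd1b shares 9.12% and 22.7%, 39 genes were higher and 129 lower in the class contrast, and 170 higher and 63 lower after CCl4. With a level of 20 CPM, 982 genes were lower in the class contrast, and 384 were higher and 116 lower after CCl4. Strict Pln-free cells gave 39 and 114 genes.

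For the shares in the plates, leaving out plates gave a BDL difference of -36.5 to -24.4 points and a CCl4 difference of -18.1 to -10.7. The Higd1b share gave 35.2 to 50.6 and 12.4 to 21.9. Merging same-named portions of plates 1 and 2 gave -24.4 and 35.4. The class counts ran from 284 to 481 higher and 288 to 640 lower when plates were left out, and the lowest came without plate 1 (313 and 318), plate 3 (284 and 296) and plate 5 (303 and 288). With no replicate block 299 genes were higher, strict wells gave 210 lower genes, and the uninjured portions alone, which are fewer, 30 and 28. RLE scaling gave 393 higher and 598 lower genes, so 39.7% of calls were higher beside 49.1%, and for strict wells 57.7% beside 68.8%. DESeq2, with a median log2 difference over all genes of -0.05 beside 0.19, called 1058 and 1081 genes for class, 201 and 175 for BDL and 129 and 163 for CCl4. Without a filter on low counts, edgeR called 33 and 24 for BDL and 7 and 2 for CCl4, and without the plate term 13 and 4 for BDL. With plates left out BDL and CCl4 gave 0 calls throughout. The cause of these differences was not tested. Depth limits low genes: 1 library per 10X condition, and 3 to 55 wells per class and portion.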

Other observations

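After Dbp was seen, other genes of the circadian clock were looked up in 10X members, so they were chosen with a value in view. Nr1d1, the repressor REV-ERB alpha, was at 4.92 CPM in the uninjured library and 50.4 after 6 weeks of CCl4. The fold was 10.3 in members and 33.6 in fibroblast-gene cells. Nr1d2 went from 2.77 to 20.1, Per1 from 15.1 to 40.7, Per3 from 11.1 to 38.0 and Tef from 29.8 to 52.7. Per2 was at 7.37 and 8.70, and Ciart at 0.615 and 5.22. Arntl, which encodes the activator BMAL1, was at 37.2 uninjured and 18.9 after CCl4. In fibroblast-gene cells the other folds were 7.38 (Nr1d2), 2.32 (Per1), 1.08 (Per3), 0.627 (Tef), 0.255 (Per2), 4.17 (Ciart) and 0.792 (Arntl). Pln-free contractile cells had 13.3 (Nr1d1), 4.31 (Nr1d2), 1.38 (Per1), 1.27 (Per3), 0.972 (Tef), 1.57 (Per2), 0.683 (Ciart) and 0.600 (Arntl). Each condition is 1 library, so there is no test. In Pln-positive wells of the plates these genes did not pass in edgeR for CCl4 or BDL. Per3 had 2.42, 18.6 and 44.6 RPM (lowest, median and highest) in the uninjured portions and 54.8, 96.9 and 157 after BDL, with no overlap, at an adjusted p of 0.984.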
